A study of Mus musculus with 5 samples.

Results

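The enzymes that write, copy and remove 5-methylcytosine were followed across embryonic stem cells (ESCs) and embryonic fibroblasts (MEFs) of the mouse. Of 10 listed genes (Dnmt1, Uhrf1, Uhrf2, Dnmt3a, Dnmt3b, Dnmt3l, Tet1, Tet2, Tet3 and Tdg), 9 had a probe set assigned to that gene alone, out of 19938 genes measured in this way. Tdg was the exception, because all 4 of its probe sets are shared with another locus, and it is not analysed here. The genes were taken by name, though with earlier results of these data known. Where a gene had several probe sets, the brightest was used.

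Total RNA of 5 samples was hybridised to 5 whole-transcript arrays, 1 array for each of 5 groups. Of these, 2 were ESCs, called 2i and S, and 3 were MEFs, called control MEFs, 2n 2i MEFs and 4n 2i MEFs. Each sample, the controls included, was an F1 of the strains 129X1/SvJ and MSM/Ms. In ESC culture 2i commonly means that MEK and GSK3 are inhibited, whereas the labels leave S, 2n and 4n unexplained, so these serve as names only. Titles carry a number of unstated meaning: 15 on 2i ESCs as well as on 2n 2i MEFs, 36 on S ESCs, 2 on 4n 2i MEFs, and 4 on control MEFs. The labels used here give no passage, number of embryos or ages, and no treatment beyond the group names.

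Cytosine methylation in mammals lies mostly at CpG dinucleotides. DNMT3A and DNMT3B place new methyl groups, helped by DNMT3L, a relative without catalytic activity. At replication UHRF1 recognises hemimethylated DNA and recruits DNMT1, which copies the mark to the new strand. The TET dioxygenases oxidise 5-methylcytosine, which leads to its dilution or to its excision by TDG and base excision repair. ESCs kept with MEK and GSK3 inhibitors are known for low genome-wide methylation, and the study's title concerns female ESCs that keep methylation inherited from the gametes. The question for these genes was taken to be how the machinery differs between the ESC groups, between the MEF groups, and between both cell types.

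CpG is the substrate of these enzymes, and the CpG content of their own promoter windows differed between members. Members with different patterns below are shown first, from RefSeq windows of assembly GRCm38.p6 that cover the 250 bases before a transcript start. All 10 listed genes had at least 1 window, 17 in all. The stretch before Dnmt3b (chr2:153649199-153649410, plus strand, 212 bases) and that before the outermost start of Dnmt3l (chr10:78042037-78042286, plus strand, 250 bases) are printed up to the annotated gene, with each CpG in capitals.
Dnmt3b: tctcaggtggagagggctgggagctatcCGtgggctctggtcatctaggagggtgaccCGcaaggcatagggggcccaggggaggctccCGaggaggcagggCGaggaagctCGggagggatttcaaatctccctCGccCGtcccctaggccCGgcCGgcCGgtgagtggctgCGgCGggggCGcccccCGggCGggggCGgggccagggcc
Dnmt3l: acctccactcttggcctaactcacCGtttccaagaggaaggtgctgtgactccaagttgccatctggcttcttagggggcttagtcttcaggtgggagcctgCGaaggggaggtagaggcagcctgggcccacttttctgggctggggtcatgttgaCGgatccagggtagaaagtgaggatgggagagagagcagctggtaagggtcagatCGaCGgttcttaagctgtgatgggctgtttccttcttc
The printed stretch of Dnmt3b held 16 CpG and that of Dnmt3l 5. Over the full 250 bases the Dnmt3b window held 21 CpG, more than 83.7% of the 32851 RefSeq windows. The Dnmt3l window held 5, more than 44.4% of them, and the median window held 6. The other 2 Dnmt3l windows held 4 and 3 CpG, and the Tet2 window, with 51, exceeded 99.9% of all windows.

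Dnmt1 and Uhrf1, the pair that copies methylation at replication, each had a CpG-rich window inside the annotated gene, with 26 and 30 CpG. The outermost Uhrf1 window held 10 CpG and the other Dnmt1 windows 2 (the outermost) and 7, and none of these held the motif described next. Both CpG-rich windows held the letters TTTCGCGC, 1 of 4 spellings searched on both strands for the motif of E2F, the factor family of S-phase genes (the others were TTTGGCGC, TTTCCCGC and TTTGCCGC). The 30 bases around each match are shown with the match in capitals, for Dnmt1 at chr9:20952824-20952853 on the minus strand, where it appears as its reverse complement, and for Uhrf1 at chr17:56304117-56304146 on the plus strand.
Dnmt1: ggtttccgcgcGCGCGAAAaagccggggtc
Uhrf1: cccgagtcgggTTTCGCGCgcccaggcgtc
No other member held this motif, and 1.86% of all windows did. Counted by gene, it was held by 2 of the 10 listed genes, by 5 of 18 dividing-cell genes with a window and by 2.16% of all 27025 genes. Of 5 further motifs searched on both strands, GGGCGG (SP1) was found in 9 of the 10 listed genes, CCAAT in 4, CACGTG (E-box) in 3, TGACGTCA (CRE) in 1 and GGTCTCTAA (PRDM14) in none. Counted in the same way, they were held by 35.4%, 37.5%, 6.86%, 1.77% and 0.281% of all genes. These letter matches describe the windows and show no binding.

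Arrays were compared as log2(intensity + 1), and levels are compared between arrays for the same gene, never between genes. With 1 array per group, a difference between 2 arrays has no replicate check, and neighbours in an order of levels cannot be separated beyond a spread. A floor was set for each array at the median over probe sets that carry a gene name (217.9 to 240.1 intensity units), and genes were compared only if the brighter of the arrays was at or above its floor. Many probe sets have exactly the same value on several MEF arrays: 45.4% for 2n and control, 37.4% for 2n and 4n, and 37.9% for 4n and control. This touches Dnmt3b and Dnmt3l below. Markers of the labelled cell types were as follows: 8 of 8 pluripotency genes reached the floor on each ESC array, against 1 (Klf4) on each MEF array, and 13 of 13 fibroblast genes reached it on each MEF array, against 5 and 8 on the 2i and S ESC arrays. Of 10 macrophage markers, 6 were past the floor on the 4n or control array, and all 6 were higher on the 4n array. Only Cd68 and Lyz2 reached the floor on the control array. The others entered through the 4n array alone, so their direction was fixed by the filter. Over all genes compared, 36.1% were higher on the 4n than on the control array. The summed intensity of all 10 markers was 16121 units on the 4n array, against 2011 on the control, 1538 on the 2n and 1189 to 1226 on the ESC arrays. Of these markers Csf1r read 481.2 units on the 4n array and 142.7 on both other MEF arrays.

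**Figure D1:**
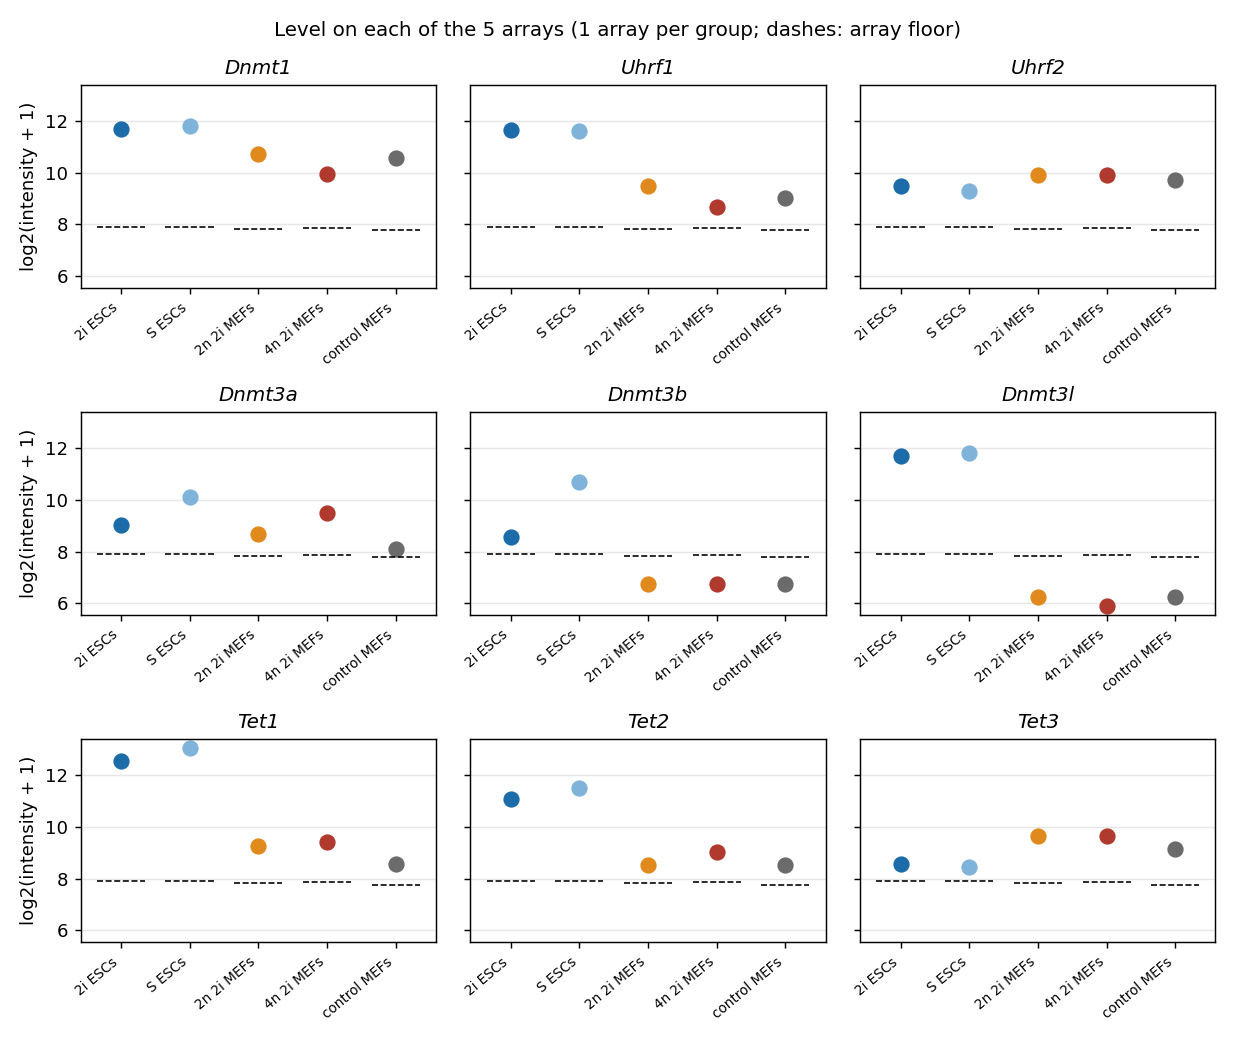
Level of each of the 9 measured genes, as log2(intensity + 1), on the 5 arrays, with 1 point per array and a dashed line at that array's floor. Dnmt3b and Dnmt3l lie below the floor on all 3 MEF arrays, and the other 7 genes lie above it on every array.

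Most of the machinery was higher in ESCs than in MEFs, with Uhrf2 and Tet3 running the other way. By limma's test (adjusted p below 0.05, with a change of 2-fold or more), 6 of the 9 members rose in ESCs and none fell. Over all 11855 genes tested, 16.6% rose and 16.2% fell by this rule (32.9% in all). The members' median difference was 2.56 on the log2 scale, against 0.06 over all genes tested. Dnmt3b and Dnmt3l entered only through the ESC arrays, where they are bright. The fit had 3 residual degrees of freedom, its spread is that between conditions of a cell type, and the labels do not say that samples came from separate cultures or embryos.

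Dnmt1, the maintenance methyltransferase (Entrez Gene 13433), read 3269 intensity units on the 2i ESC array, 3619 on the S ESC, 1676 on the 2n MEF, 984.1 on the 4n MEF and 1529 on the control MEF array. Both ESC arrays lay above all 3 MEF arrays, and the 4n array was lowest. Its mean was 11.75 ± 0.10 (log2, SD, n = 2) in ESCs and 10.41 ± 0.41 (SD, n = 3) in MEFs, a 2.53-fold excess with an adjusted p of 0.0132 in limma. Leaving out either ESC array ended the call, with adjusted p values in limma of 0.0985 without the 2i and 0.120 without the S array, while the log2 difference was 1.41 and 1.26.

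Uhrf1 (Entrez Gene 18140), the reader that brings DNMT1 to hemimethylated DNA, read 3200 units on the 2i ESC, 3132 on the S ESC, 719.6 on the 2n MEF, 406.9 on the 4n MEF and 520.5 on the control MEF array. The ESC arrays were nearly level and well apart from the MEF arrays, which fell in the same order as for Dnmt1. The excess in ESCs was 5.92-fold (log2 2.56, 95% interval 1.87 to 3.26), with an adjusted p of 0.00211 in limma. The paralogue Uhrf2 (Entrez Gene 109113), which also binds modified cytosine, read 716.0 and 624.1 units on the 2i and S ESC arrays and 969.0, 975.8 and 850.2 on the 2n, 4n and control MEF arrays. All MEF arrays lay above both ESC arrays, by 1.39-fold on average (log2 ESC minus MEF -0.48, interval -0.79 to -0.16, adjusted p of 0.0254 in limma), which is under the 2-fold threshold. The Uhrf2 difference was -0.45 without the 2n, -0.44 without the 4n and -0.54 without the control array. Adjusted p values in limma were 0.0962, 0.0564 and 0.0465 in that order. The difference was -0.57 without the 2i ESC array and -0.38 without the S ESC array. Ranges of the cell types did not overlap in 8 of the 9 members and in 77.8% of all genes tested.

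Among the de novo enzymes, Dnmt3l (Entrez Gene 54427) had the largest difference of the 9 members. It read 3342 and 3578 units on the 2i and S ESC arrays and 74.2, 58.5 and 74.2 on the 2n, 4n and control MEF arrays. Every MEF value lay below the floor and 2 of them were identical, so the fold of 49.7 depends on an unknown background (log2 5.64, adjusted p of 0.00017 in limma).

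Dnmt3b (Entrez Gene 13436) read 373.0 units on the 2i ESC array, 1667 on the S ESC array and 105.2 on each MEF array. The S array stood apart from the 2i array, and the 3 identical MEF values hold no measured spread. The mean difference of 2.89 (log2) had an adjusted p of 0.0200 in limma. It was 1.82 without the S array and 3.97 without the 2i array. Without the 2n array the adjusted p was 0.0588 in limma, and without the control array 0.0521, so the call was lost in both cases although the difference stayed at 2.89.

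Dnmt3a (Entrez Gene 13435) was the member whose cell types overlapped. It read 517.4 units on the 2i ESC, 1105 on the S ESC, 403.9 on the 2n MEF, 719.3 on the 4n MEF and 275.9 on the control MEF array. The 4n MEF array lay above the 2i ESC array. The mean difference between cell types was 0.81 (log2) with a 95% interval from -0.64 to 2.25 and an adjusted p of 0.255 in limma, so neither a rise nor an equal level was shown.

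The TET genes went different ways. Tet1 (Entrez Gene 52463), the dioxygenase typical of ESCs, read 6053 and 8435 units on the 2i and S ESC arrays and 622.4, 689.2 and 375.0 on the 2n, 4n and control MEF arrays. Tet2 (Entrez Gene 214133) read 2160 and 2907 units on the 2i and S ESC arrays and 371.6, 526.5 and 367.2 on the 2n, 4n and control MEF arrays. In both genes every ESC array lay far above every MEF array, and S lay above 2i. Tet1 was 13.1-fold higher in ESCs (adjusted p of 0.00147 in limma) and Tet2 6.02-fold (adjusted p of 0.00155 in limma).

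Tet3 (Entrez Gene 194388), the form best known from the zygote and differentiated cells, read 375.7 and 352.2 units on the 2i and S ESC arrays and 802.6, 796.2 and 561.8 on the 2n, 4n and control MEF arrays. It was 1.95-fold higher in MEFs, just short of 2-fold, with an adjusted p of 0.0142 in limma (log2 ESC minus MEF -0.96, interval -1.49 to -0.44). Without the control array the difference was -1.13 and passed the threshold (adjusted p of 0.00848 in limma). With any other array left out Tet3 was not called. The difference was then -1.01 without the 2i ESC, -0.92 without the S ESC, and -0.88 without the 2n or the 4n array.

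**Figure D2:**
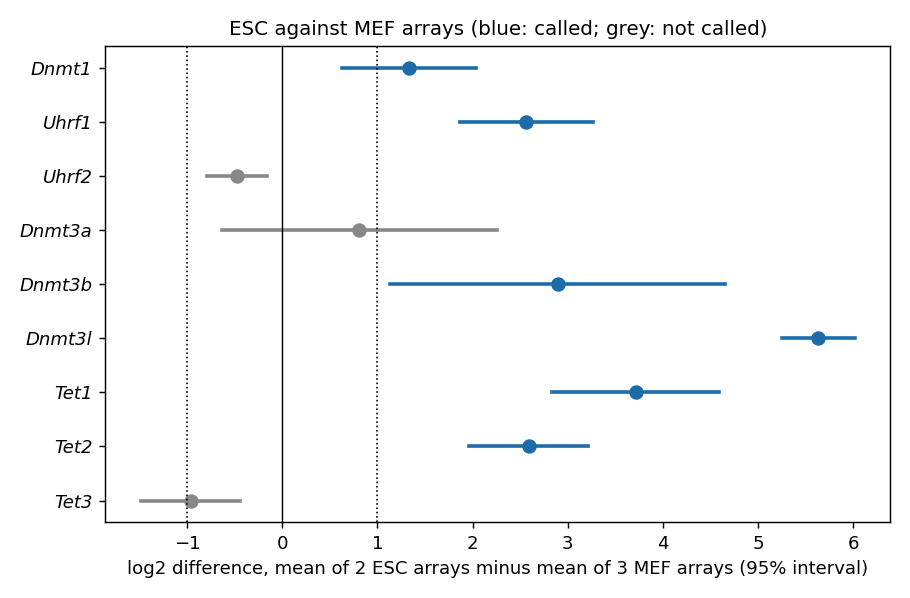
Difference between cell types for the 9 genes, as the mean log2(intensity + 1) of 2 ESC arrays minus that of 3 MEF arrays, with limma's 95% interval as a bar and dotted lines at 2-fold. The 6 called genes are blue and lie to the right, from 1.34 (Dnmt1) to 5.64 (Dnmt3l), and Uhrf2, Dnmt3a and Tet3 are grey.

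Genes that work with these enzymes were read from lists chosen by function. By the same rule, 16.6% of all 11855 genes tested rose and 16.2% fell. Of 12 partners of maintenance methylation, 9 rose in ESCs, among them the remodeller gene Hells (log2 2.86), Cdca7 (2.54), which works with it, Lig1 (2.34), the ligase that UHRF1 binds at replication, and Zfp57 (1.85), which guards imprints. None fell, and Pcna, Ehmt1 and Ehmt2 were not called. Of 8 regulators of de novo methylation 4 rose, led by Prdm14 (4.02), a repressor of Dnmt3b in naive cells, and none fell. Of 9 tested base excision repair genes 3 rose, Parp1 (2.36), the uracil glycosylase gene Ung (2.18) and the thymine glycosylase gene Mbd4 (1.87), and none fell. The readers of methylated DNA ran the other way, with 3 of 6 lower in ESCs, Mbd2 (-2.71), Zbtb4 (-1.52) and Mbd1 (-1.09), and none higher. Prdm14 read 97.6 units on each MEF array, and Dppa3, also among the 9 maintenance partners that rose, read 121.9 units on each. Mbd4 read 183.9 to 186.0 units on the MEF arrays and Zbtb4 203.7 and 182.9 units on the ESC arrays. All of these values lay below the floor. These genes entered only through the cell type where they are bright, and the size of their differences depends on background.

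Of 7 genes of methyl donor metabolism 4 rose in ESCs, led by Shmt1 (log2 1.97), a folate cycle enzyme. Of 11 TET cofactor and partner genes 3 rose, Sin3a (1.87), Idh2 (1.41) and the ascorbate transporter gene Slc23a2 (1.07). The 1 that fell was Cxxc4 (-1.48), whose product binds unmethylated CpG and TET2. Of all genes tested, 32.9% were called in either direction, a share near that of this list. On the 2i and S ESC arrays Cxxc4 read 102.0 and 102.7 units, under the floor, so its difference depends on background as well. The list medians were 1.37 for maintenance partners, 0.99 for de novo regulators, 0.75 for base excision repair, 1.09 for methyl donor metabolism, 0.56 for TET partners and -0.70 for readers.

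Dividing-cell genes moved with this contrast. Of 19 measured, 14 rose in ESCs and none fell (median 1.46, range 0.60 to 2.23), where 16.6% of all genes tested rose and 16.2% fell. Their summed intensity was 78387 and 86561 units in ESCs against 26891 to 40752 in MEFs. The difference of Dnmt1 (1.34) lay inside that range, while that of Uhrf1 (2.56) lay above all 19. The part of cell division in these differences was not tested. In bulk samples, fewer cells that express a gene and less RNA per cell cannot be told apart.

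Between the ESC groups, the de novo methyltransferases Dnmt3b and Dnmt3a were lower on the 2i array, while their cofactor Dnmt3l and the maintenance pair were nearly level. Of 9 members, 2 were lower on the 2i array by 2-fold or more and none higher. Over 10493 genes, 2.54% were lower and 2.78% higher by that much (5.33% in all), and the median was -0.15 for the members and -0.04 for all genes. Dnmt3b was 4.46-fold lower on the 2i array (373.0 against 1667 units), the 36th lowest of the 10493 differences. Dnmt3a was 2.13-fold lower (517.4 against 1105 units), the 215th lowest. These are single arrays, so neither difference was tested.

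The remaining log2 differences, 2i minus S, were small. Dnmt1 differed by -0.15, Uhrf1 by 0.03, Uhrf2 by 0.20, Dnmt3l by -0.10 and Tet3 by 0.09, and between 57.0% and 92.5% of all genes differed at least as much. Tet1 (-0.48) and Tet2 (-0.43) were lower on the 2i array, by amounts that 21.6% and 25.2% of all genes reached. Among the listed partners no gene of any of the 6 functional lists reached 2-fold between the ESC arrays. The nearest were Gadd45a (-0.87), Mthfd2 (-0.81), Gadd45b (0.79), Idh1 (0.78), Ogt (0.77) and Prdm14 (0.75), whose level was 2067 units on the 2i and 1228 on the S array.

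Of 13 fibroblast markers, 8 were past the floor on an ESC array, and all 8 read higher in S than in 2i ESCs. Of these, Dcn, Prrx1 and Col6a1 reached the floor on the S array alone, so their direction was fixed by the filter. Over all genes compared, 54.9% were lower on the 2i array. The summed intensities of all 13 markers were 5004 units in S and 3622 in 2i ESCs, against 79392 to 96322 on the MEF arrays. Dnmt3b was at 105.2 units on every MEF array, below both ESC arrays, and Dnmt3a was lower on every MEF array than on the S ESC array. The part of fibroblast RNA in the differences of Dnmt3b and Dnmt3a between the ESC arrays was not tested. Dividing-cell genes differed little between the ESC arrays, with a median of -0.10 (range -0.50 to 0.15) and none at least 2-fold. Of the 19 measured, 14 read lower on the 2i array, as did 54.9% of all genes compared.

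**Figure D3:**
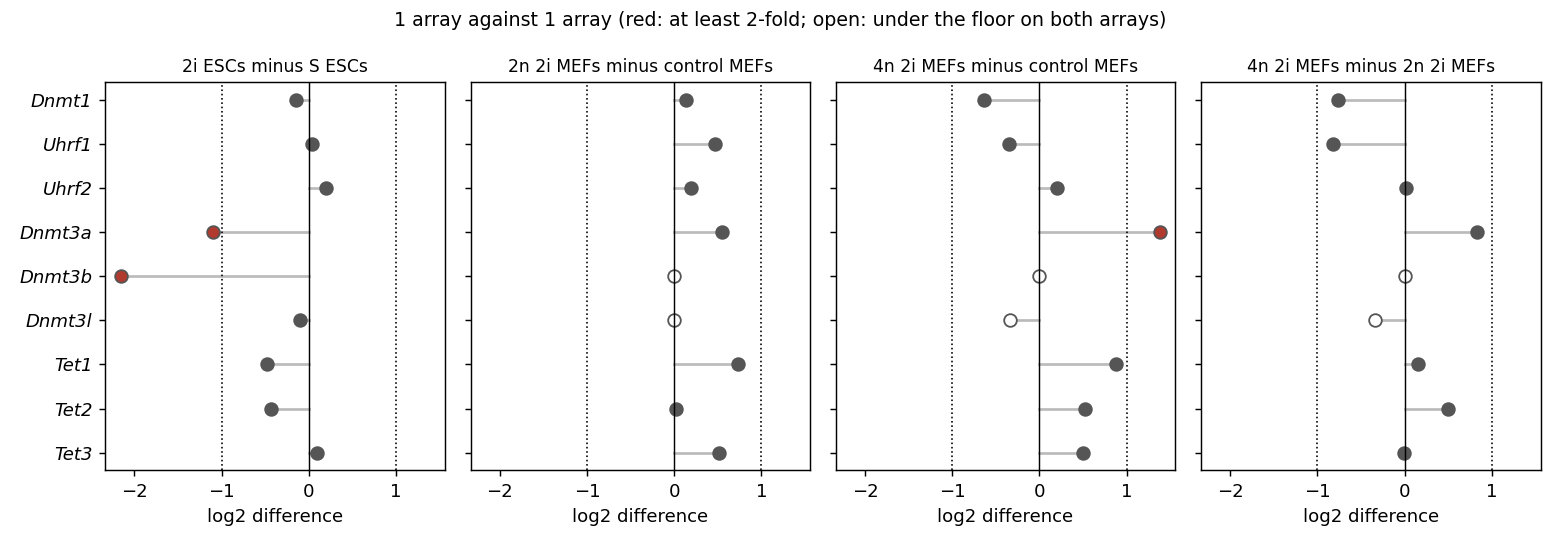
Log2 difference of each of the 9 genes in 4 comparisons of 1 array against 1 array, with dotted lines at 2-fold, red points past 2-fold and open points under the floor on both arrays. Dnmt3b and Dnmt3a are red in the first panel, at -2.16 and -1.09, and Dnmt3a is red in the third, at 1.38.

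Among the MEF groups, all 7 members past the floor read higher on the 2n than on the control array (Tet2 by 0.02 on the log2 scale, which turned to -0.05 after quantile normalization), and on the 4n array 5 read higher (Dnmt3a, Tet1, Tet2, Tet3 and Uhrf2) and Dnmt1 and Uhrf1 lower. Over all genes compared, 44.8% were higher and 34.6% lower on the 2n array, and 36.1% higher and 51.5% lower on the 4n array. These comparisons share the control array, so their values are given side by side. On the 2n array none of the 7 members past the floor differed 2-fold, where 1.91% of 10131 genes did, while on the 4n array 1 of 7 did, where 8.7% of 10304 genes did (5.26% higher and 3.44% lower). That gene was Dnmt3a, at 719.3 units on the 4n array against 275.9 on the control (2.60-fold) and 403.9 on the 2n array (1.46-fold over the control). Its signal on the control array was close to the floor, so the fold depends on background.

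Tet1 was 1.66-fold higher on the 2n array and 1.84-fold higher on the 4n array than on the control array. Differences of that size or more were seen in 3.88% and 11.1% of all genes. By its 2 brighter probe sets the differences were 0.73 and 0.69 (log2) on the 2n array and 0.88 and 0.77 on the 4n array. The second of these lay below the floor on the control array (198.4 units), so its size depends on background. The remaining probe set lay below the floor on all 3 MEF arrays and was not compared among them. Probe sets of a gene share its RNA and are not replicates.

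Tet3 was higher by 0.51 on the 2n and 0.50 on the 4n array by its brighter probe set, and by 0.13 on both by the other. Tet2 was level on the 2n array (0.02, or -0.05 after quantile normalization) and higher on the 4n array (0.52). Uhrf2 differed by 0.19 and 0.20 on the 2n and 4n arrays. Dnmt3b and Dnmt3l lay below the floor on every MEF array and were not compared.

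**Figure D4:**
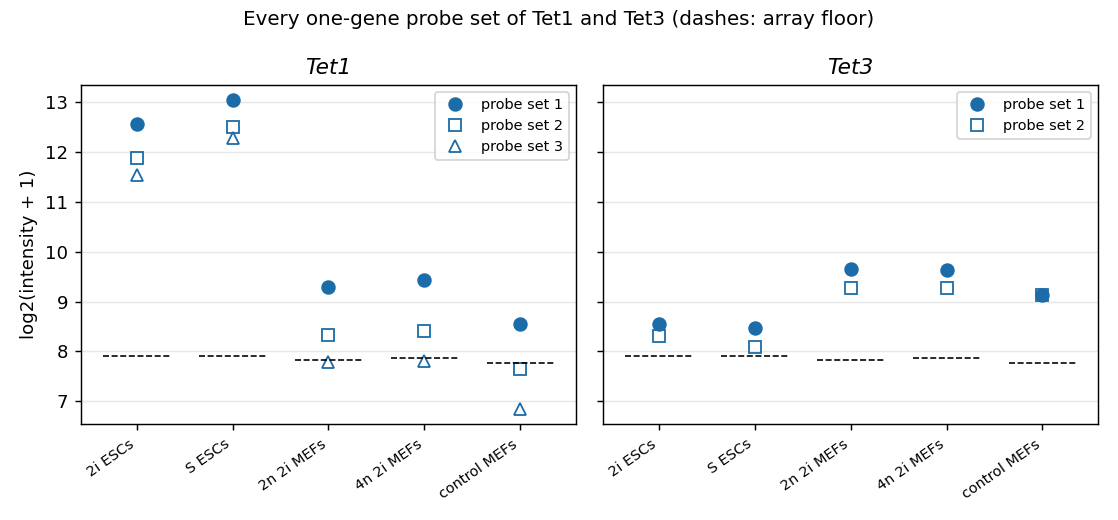
Every single-gene probe set of Tet1 (3) and Tet3 (2), as log2(intensity + 1) on the 5 arrays, numbered from the brightest, with dashes at each array's floor. The 2 brighter Tet1 probe sets are lowest on the control MEF array, the remaining one lies below the floor on all 3 MEF arrays, and both Tet3 probe sets are lower on the ESC than on the MEF arrays.

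Dnmt1 and Uhrf1 read lower on the 4n than on the 2n MEF array, by less than 2-fold. Against the control array, Dnmt1 was at 0.13 (log2) on the 2n and -0.64 on the 4n array, and Uhrf1 at 0.47 and -0.35. Set directly against the 2n array, the 4n array was 1.70-fold lower in Dnmt1 (1676 against 984.1 units) and 1.77-fold lower in Uhrf1 (719.6 against 406.9 units). Neither reached 2-fold, and 10.4% and 8.91% of 10280 genes differed at least as much. In that comparison none of the 7 members past the floor reached 2-fold, where 5.7% of genes did. Dnmt3a ran in the opposite direction, higher on the 4n than on the 2n array by 0.83, as did Tet2 by 0.50.

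Dividing-cell genes moved alongside. All 19 were lower on the 4n than on the 2n array, with a median of -0.66 and a range from -1.29 (Rrm2) to -0.16 (Pcna), and the differences of Dnmt1 (-0.77) and Uhrf1 (-0.82) lay inside that range. Against the control array 18 of 19 were higher on the 2n array (median 0.43). On the 4n array 16 of the 18 past the floor were lower than on the control array (median -0.23). The shares of all genes compared with the control array were 44.8% higher on the 2n and 51.5% lower on the 4n array. Of the 11 maintenance partners past the floor 7 were lower on the 4n than on the 2n array, with Hells at 192.1 units (below the 4n floor) against 385.2 and Cdca7l at -0.83 (log2), and 2 were higher, Zfp57 (0.37) and Ehmt2 (0.03). Over all genes compared, 54.8% were lower on the 4n than on the 2n array. The part of cell division in the levels of Dnmt1 and Uhrf1, and that of the macrophage genes of the 4n array in any of its differences, was not tested.

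**Figure D5:**
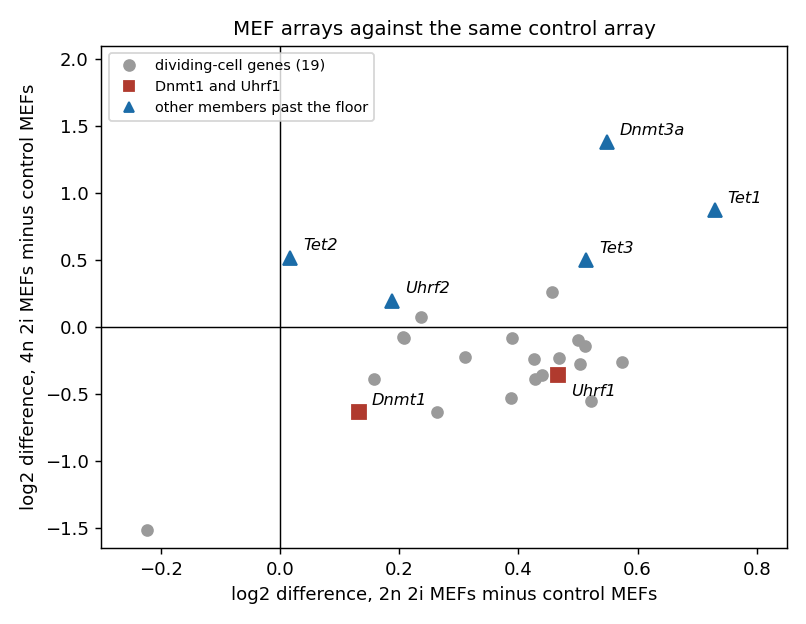
Log2 difference from the control MEF array on the 2n (x axis) and 4n (y axis) 2i MEF arrays, for 19 dividing-cell genes (grey), Dnmt1 and Uhrf1 (red squares) and the other 5 members past the floor (blue triangles). Dnmt1 and Uhrf1 lie below zero on the y axis, as do 17 of the grey points, and the blue points lie above it. Of these grey points Cdc6 is under the floor on both the 4n and control arrays. Both axes use the same control array.

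Of the 6 functional lists, 1 gene reached 2-fold between the 4n and control MEF arrays. This was the stress gene Gadd45a (log2 1.34), whose product has been linked to demethylation. It was at 0.79 on the 2n array. No gene of the 6 functional lists reached 2-fold on the 2n array. All 7 measured regulators of de novo methylation past the floor were higher on the 2n than on the control array, by 0.04 to 0.29. Of all genes compared between these arrays, 44.8% were higher and 34.6% lower on the 2n array. None of the 7 methyl donor genes was higher on the 4n than on either other MEF array, 5 were lower, and Mthfd1 was lowest at -0.89 from the control. Over all genes compared, 51.5% were lower on the 4n array than on the control and 54.8% lower than on the 2n array.

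The genes with profiles most like each member were found by the root mean square difference of log2 values over the 5 arrays, each profile centred on its mean. For Dnmt1 the nearest was Smc2 (0.018), a condensin subunit, followed by Mre11a (0.058), a DNA break repair gene, and Dnajc2 (0.058). For Uhrf1 they were Chek1 (0.081), Mcm10 (0.082) and Orc1 (0.088), which act in the replication checkpoint and at replication origins. Nearest to Dnmt3b were Grb7 (0.100), the tight junction gene Cldn6 (0.133) and Lin28a (0.190), which encodes an RNA-binding protein of stem cells. Dnmt3a was nearest to Sort1 (0.102), Sox12 (0.156) and Aplp1 (0.174).

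Dnmt3l was nearest to Pla2g1b (0.137), the germ cell gene Tdrd12 (0.144) and the pluripotency factor gene Esrrb (0.169), all below the floor in MEFs. Tet1 was closest to Rcor2 (0.066), encoding a corepressor of the LSD1 complex, with the next gene, Zic2, much farther away (0.268). Tet2 lay nearest to Stmn3 (0.102), Smagp (0.112) and the Polycomb gene Phc1 (0.135). Tet3 lay nearest to Speg (0.053), Ugp2 (0.058) and Ttc3 (0.061), and Uhrf2 to Col2a1 (0.028), Churc1 (0.030) and Iqsec2 (0.039). With 5 arrays and a large contrast between cell types, many genes lie close to any profile, and these distances are descriptions.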

How the data were processed

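The deposited table gives intensity on a linear scale for 28853 probe sets on 5 arrays; RNA was biotinylated with a whole-transcript kit, per the labels' protocols. Background correction, summarisation and normalization are not given in the sources used here. By the platform annotation 21789 probe sets belong to 1 gene, 1621 to several and 5443 to none named, and 21698 symbols were matched by Entrez Gene number to GRCm38.p6. Probe sets of several genes were not used. Values were analysed as log2(value + 1).

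ESC and MEF arrays were compared with limma 3.58.1 (lmFit and eBayes, Benjamini-Hochberg adjustment over all 11855 genes; R 4.3.3), tested on simulated data. Pairs of arrays were compared by log2 difference at 2-fold, with no test. The members and lists were chosen with earlier results of these data known. All members are named, with listed genes by size of difference (up to 4 per list and comparison, and further ones chosen after their values were seen) and the 3 nearest profiles per member. Alternatives were the floor, quantile normalization, probe set means, a pseudocount of 16, 3-fold, each array left out, and limma with an intensity trend and robust prior. Promoter letters were searched with Python 3.11.15. The number of arrays limits the precision.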

Additional observations from a re-analysis of the deposited data

Results flagged for a closer look

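Dnmt1 and Uhrf1 were picked out because the 2 kinds of 2i MEFs moved in opposite directions from the same control array. Dnmt1 was at 0.13 (log2) on the 2n and -0.64 on the 4n array, a gap of -0.77, and Uhrf1 was at 0.47 and -0.35, a gap of -0.82. Differences from the control of at least that size were seen in 38.5% (2n) and 18.0% (4n) of all genes for Dnmt1, and in 8.62% and 36.5% for Uhrf1. With 1 array per group these differences were not tested.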

How the results depend on the processing

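No paired analysis was possible because each group has 1 array and the number shared in the titles joins 2i ESCs only with 2n 2i MEFs. The count of members called between ESC and MEF arrays was 6, and ranged from 5 to 6 when each array was left out; where 1 ESC array was left, that array was assumed to vary like the MEF arrays. Without the control MEF array the 6 were 5 higher and 1 lower. The count was 5 at 3-fold, where Dnmt1 was not past the threshold, and 6 under each other alternative. Between the ESC arrays the count was 1 in place of 2 at 3-fold (Dnmt3b). Between the 4n and control MEF arrays it was 0 in place of 1 at 3-fold, and 0 with the floor at the 75th percentile, under which Dnmt3a was not compared. In the other 2 comparisons of MEF arrays it was 0 under every alternative run. No called difference of a member changed sign. Intensities near the floor limit what can be read of Dnmt3a and Tet1 on the control MEF array, and of Dnmt3b and Dnmt3l on all MEF arrays.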
